A study of Homo sapiens with 22 samples.

Results

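The cytosolic ribosomal protein genes encode the proteins of the large and the small subunit of the cytosolic ribosome. Members were RefSeq protein-coding genes whose symbol is RPL or RPS followed by a digit, together with RPLP0, RPLP1, RPLP2 and RPSA. RPS6K kinase genes and symbols that end in L, or in L and digits, were left out. The rule found 83 of 20033 protein-coding genes on chromosomes 1 to 22, X and Y. Of these, 46 belong to the large subunit and 33 to the small subunit. The other 4 were not single ribosomal protein genes. RPL17-C18orf32, RPL36A-HNRNPH2 and RPS10-NUDT3 are readthrough symbols that join a ribosomal protein gene to its neighbour, and they share regions with RPL17, RPL36A and RPS10. RPS19BP1 encodes a protein that binds RPS19 and is no part of the ribosome.

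Ribosomal protein genes are expressed in nearly every cell, because every ribosome needs nearly all of these proteins, and their products are among the most abundant in growing cells. Their transcripts typically begin with a C followed by a run of pyrimidines at the 5′ end, the terminal oligopyrimidine tract, through which growth signalling by mTOR controls their translation. Many of them host small nucleolar RNA (snoRNA) genes in their introns, which guide the modification of ribosomal RNA.

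The series profiled chromatin in 2 human cell lines by transposase and nuclease assays, in 22 libraries of 6 groups. HFFc6 is subclone c6 of HFF-hTERT, foreskin fibroblasts immortalised with telomerase, and H1 is an established pluripotent line derived from an embryo. ATAC-seq inserts adapters into accessible DNA with the transposase Tn5 and was run on 8 HFFc6 and 2 H1 libraries, and Cut&Tag with an antibody to CTCF was run on 2 HFFc6 libraries. The titles of these 2 libraries read HFF1 and chip, and the line and assay given here are those of their cell line and protocol fields. No treatment, time point or genotype is given for any group, and 10 HFFc6 libraries against SMC1, H3K4me3 or H3K27ac were not used here. CTCF binds DNA through zinc fingers and holds the ends of chromatin loops together with cohesin, and Cut&Tag tethers Tn5 to it. The values come from 4 deposited peak lists, 1 for each of these 3 groups and 1 whose name gives hESC and CTCF. No sample label used here describes that last list, called hESC-named hereafter, so its assay and cell line are unknown here.

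The HFFc6 ATAC list held 156001 regions (median width 707 bp), the H1 ATAC list 190126 (301 bp), the HFFc6 CTCF list 82374 (696 bp) and the hESC-named CTCF list 104941 (496 bp). Each list is 1 call over pooled libraries with no value per library, so the lines could not be tested against each other, and a difference is one between lists. Read depth is unknown. The labelled cell types were checked at 9 stem cell and 9 fibroblast markers. Of the stem cell markers, 6 had an ATAC region at a gene end in H1 alone, among them LIN28A and ZFP42, 2 in both lists (NANOG and SOX2), and POU5F1 in neither. Of the fibroblast markers, 8 had one in both lists and THY1 in neither, so presence at an end does not mark HFFc6. Among 4 epithelial markers, CDH1 and GRHL2 had one in H1 alone. Of the blood markers SPI1 had one in both lists and PTPRC in HFFc6 alone.

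The start sequences of 9 members, chosen mainly by their CTCF values, are shown. Among members with a listed start, RPL26, RPL27, RPS3A, RPL32, RPS19 and RPS14 had the highest mean rank over both CTCF lists (rank is the percent of a list's regions with a lower fold enrichment), and RPS4Y1 and RPS4Y2 had no CTCF region at the start. RPS4X, the X-linked copy of the same small subunit protein, was added after its values were seen. Each stretch runs 5′ to 3′ from 100 bases before the listed start to the 15th transcribed base, from RefSeq on GRCh38.p14. The positions are RPL26 chr17:8383179-8383293 on the minus strand, RPL27 chr17:42998319-42998433 on the plus strand, RPS3A chr4:151099528-151099642 on the plus strand, RPL32 chr3:12841568-12841682 on the minus strand and RPS19 chr19:41860155-41860269 on the plus strand. The others are RPS14 chr5:150449725-150449839 on the minus strand, RPS4X chrX:72277234-72277348 on the minus strand, RPS4Y1 chrY:2841502-2841616 on the plus strand and RPS4Y2 chrY:20756008-20756122 on the plus strand. Capitals mark a pyrimidine tract that begins at the start base and matches, on either strand, to the letter motifs named with the promoter results.
RPL26: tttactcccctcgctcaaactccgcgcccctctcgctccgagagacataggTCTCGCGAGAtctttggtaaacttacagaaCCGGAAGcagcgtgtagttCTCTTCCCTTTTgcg
RPL27: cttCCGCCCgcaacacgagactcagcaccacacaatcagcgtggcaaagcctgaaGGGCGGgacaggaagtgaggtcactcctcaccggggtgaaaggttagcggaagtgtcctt
RPS3A: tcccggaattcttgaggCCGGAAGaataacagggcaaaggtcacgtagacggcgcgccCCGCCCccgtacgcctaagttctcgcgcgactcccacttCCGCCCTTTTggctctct
RPL32: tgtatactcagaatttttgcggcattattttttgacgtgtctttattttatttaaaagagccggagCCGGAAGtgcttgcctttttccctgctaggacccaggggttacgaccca
RPS19: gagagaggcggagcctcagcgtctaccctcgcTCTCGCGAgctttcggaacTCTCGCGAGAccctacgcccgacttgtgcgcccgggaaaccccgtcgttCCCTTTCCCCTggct
RPS14: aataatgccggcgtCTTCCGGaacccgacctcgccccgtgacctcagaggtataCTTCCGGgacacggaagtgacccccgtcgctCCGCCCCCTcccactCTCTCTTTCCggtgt
RPS4X: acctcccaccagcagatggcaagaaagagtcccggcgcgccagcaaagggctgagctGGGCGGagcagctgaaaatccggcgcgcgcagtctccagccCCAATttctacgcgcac
RPS4Y1: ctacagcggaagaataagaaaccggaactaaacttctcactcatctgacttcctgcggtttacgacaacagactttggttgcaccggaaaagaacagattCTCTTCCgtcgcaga
RPS4Y2: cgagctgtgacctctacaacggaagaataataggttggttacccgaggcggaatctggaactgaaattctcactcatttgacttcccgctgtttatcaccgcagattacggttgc

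Nearly all ribosomal protein genes had open chromatin at the start in both cell lines. An ATAC region lay within 1 kb of a start in both ATAC lists for 82 of 83 genes (98.8%, 95% Wilson interval 93.5 to 99.8), against 69.9% of all protein-coding genes. At either gene end the count was also 82, against 70.3% of all genes. No member had an ATAC region at the start in 1 list alone, whereas 917 of all genes had one in HFFc6 alone and 1679 in H1 alone. The exception was RPS4Y2, the second Y-linked copy of the RPS4 gene, which had no region of any list at either end. A listed start was available for 66 members, and either gene end stood in for it at the other 17. Intervals cover counting error only.

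CTCF regions lay at the start almost as often. The count in both CTCF lists was 79 of 83 (95.2%, interval 88.3 to 98.1), against 60.4% of all genes, and at either end it was 80, against 60.8%. Among genes with an ATAC region at the start in both lists, 79 of 82 members (96.3%, interval 89.8 to 98.7) and 84.1% of all genes had CTCF there in both lists. RPL14, which encodes a large subunit protein, had a CTCF region at the start in HFFc6 alone, with a fold enrichment of 7.04. RPS21, of the small subunit, had one in HFFc6 alone with 5.15, and the hESC-named list held a region at its other end (5.37). RPS4Y1 and RPS4Y2 had none in either list. The strongest HFFc6 CTCF region at the start overlapped an HFFc6 ATAC region in 80 of 81 members, and the strongest hESC-named region overlapped H1 ATAC in 77 of 79. Over all genes these shares were 97.0% and 95.6%. Tn5 also cuts open chromatin without an antibody, and its part in the HFFc6 CTCF regions was not tested.

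**Figure D1:**
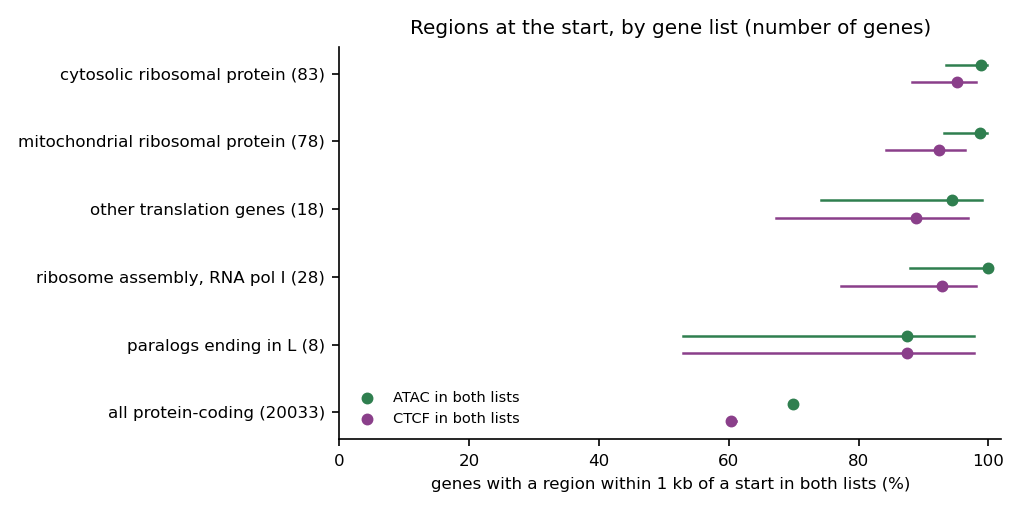
Share of genes (x axis, percent) with an ATAC region (green) or a CTCF region (purple) within 1 kb of a start in both lists of that kind, for 5 gene lists and all protein-coding genes (y axis, number of genes in brackets). Points are shares and bars 95% Wilson intervals; the cytosolic ribosomal protein genes sit at 98.8% for ATAC and 95.2% for CTCF, against 69.9% and 60.4% of all genes.

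Other gene lists of protein synthesis gave shares close to these. Of 78 mitochondrial ribosomal protein genes, which encode the separate ribosome of mitochondria, 77 had an ATAC region at the start in both lists and 72 had CTCF in both. All 28 genes of ribosome assembly and RNA polymerase I had ATAC in both and 26 had CTCF in both, with FBL and NOP56 lacking it in the hESC-named list. Of 18 other translation genes whose mRNAs carry the pyrimidine tract, 17 had ATAC in both and 16 CTCF in both. Of 8 paralogs left out by their final L, 7 had ATAC and CTCF in both lists, and RPL10L, an intronless copy expressed in testis, had them in H1 and in the hESC-named list only. The intervals of these lists overlap those of the cytosolic genes. The RefSeq table also held 1994 pseudogenes of these genes, mostly processed copies inserted without the promoter. An ATAC region lay at an end in both lists for 93 of them (4.66%, interval 3.82 to 5.68) and in neither for 76.7%. All 14851 other pseudogenes gave 8.27% and 73.5%. More than 2 kb from any protein-coding gene end, 3.85% of the ribosomal protein pseudogenes and 6.72% of the others had one in both lists. How reads that map to several copies were handled is unknown, and its part in these shares was not tested.

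Regions at the member starts were mostly found in both lists of a kind, where 1 bp of overlap counted. Of 84 HFFc6 ATAC regions at member starts, 83 overlapped an H1 region (98.8%), against 86.2% of HFFc6 regions at the starts of all genes. Of 93 H1 regions there, 88 overlapped an HFFc6 region (94.6%), against 80.3%. The corresponding CTCF shares were 94.1% of 85 HFFc6 regions against 79.6%, and 96.5% of 85 hESC-named regions against 78.2%. Sharing depended on the overlap asked for in the lists with wider regions. With at least 50% of a region covered, 39.3% of the HFFc6 ATAC regions at member starts were found in H1, against 44.3% at the starts of all genes, and 55.3% of the HFFc6 CTCF regions in the hESC-named set, against 47.9%. For H1 ATAC the share stayed at 94.6%, against 76.7%, and for hESC-named CTCF it was 94.1%, against 72.1%. At 1 bp the strongest start region was found in the other ATAC list for all 82 members with one. The single HFFc6-only ATAC region at a start lay at RPS24, and the 5 H1-only regions lay at members without a listed start, among them RPL37, RPS15A, RPS19BP1 and RPS2, so these may be at the other gene end. These genes were named after their values were seen.

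Regions inside the genes were shared less often, and in each list the interval contained the share over the bodies of all genes. Away from both ends, 8 of 28 HFFc6 ATAC regions in member bodies were found in H1 (28.6%, interval 15.3 to 47.1), against 26.9% over the bodies of all genes. For H1 the count was 8 of 19 (42.1%, interval 23.1 to 63.7), against 27.03%. For CTCF it was 9 of 23 in HFFc6 (39.1%, interval 22.2 to 59.2), against 40.6%, and 10 of 18 in the hESC-named list (55.6%, interval 33.7 to 75.4), against 35.3%. The members are short, with a median length of 5035 bp against 24130 bp for all protein-coding genes. An HFFc6 ATAC region lay in the body of 13 members, and no share over all genes is given beside this count. RPS10-NUDT3, which spans 138876 bp against 8616 bp for RPS10, held more list-only ATAC regions than any other member, 6 in HFFc6 and 5 in H1. RPS3, whose protein sits at the mRNA entry of the small subunit and also acts in DNA repair, held a strong HFFc6-only ATAC region at chr11:75418671-75419483 (hg38) with a fold enrichment of 17.3, higher than 96.7% of that list. An HFFc6-only CTCF region of 8.65 overlapped it. RPS3 also held a CTCF region found in both lists, with 29.0 in the hESC-named list (rank 99.5%) and 9.47 in HFFc6. RPS24, a small subunit gene mutated in Diamond-Blackfan anaemia, held an HFFc6-only ATAC region at chr10:78052936-78053993 with 15.1. Its other strong body region was found in all 4 lists, with CTCF fold enrichments of 13.1 in HFFc6 and 19.5 in the hESC-named set. RPS29 held a body region found in all 4 lists, at ranks of 97.0% and 97.1% in HFFc6 and H1 ATAC and of 97.2% and 95.5% in the CTCF lists. Its start regions ranked lower, at 79.7%, 63.6%, 82.4% and 22.2%. The only start listed for RPS29 is at base 49598710 of chromosome 14, and the body region lies at chr14:49585903-49587156 in the HFFc6 ATAC list. RPL28 held 2 H1-only ATAC regions of 4.55 and 4.54, and RPL31 held 2 HFFc6-only regions of 2.01 and 2.41, all below rank 35%.

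The start regions of the ribosomal protein genes ranked high among the open regions of each list. Ranks rest on the fold enrichment, which is the authors' peak caller value. The strongest ATAC region at the start had a median rank of 87.6% in HFFc6 (95% interval of the median 83.2 to 89.4) and 88.8% in H1 (83.7 to 90.4). Over all genes with a start region the medians were 80.0% and 80.2%. At rank 90% or above lay 30 of 82 members in HFFc6 and 35 of 82 in H1, which is 36.6% and 42.7% against 26.97% and 26.2% of all genes. For CTCF the medians were 77.3% in HFFc6 (65.5 to 83.7) and 62.9% in the hESC-named set (56.4 to 68.4), against 73.7% and 58.4%. Both CTCF intervals contain the median of all genes. Mitochondrial ribosomal protein genes had medians of 92.3%, 89.6%, 77.5% and 58.4% in the ATAC lists of HFFc6 and H1 and the CTCF lists of HFFc6 and the hESC-named set. Large subunit genes had medians of 84.2% and 86.1% in the ATAC lists and small subunit genes 88.9% and 89.9%, with overlapping intervals.

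**Figure D2:**
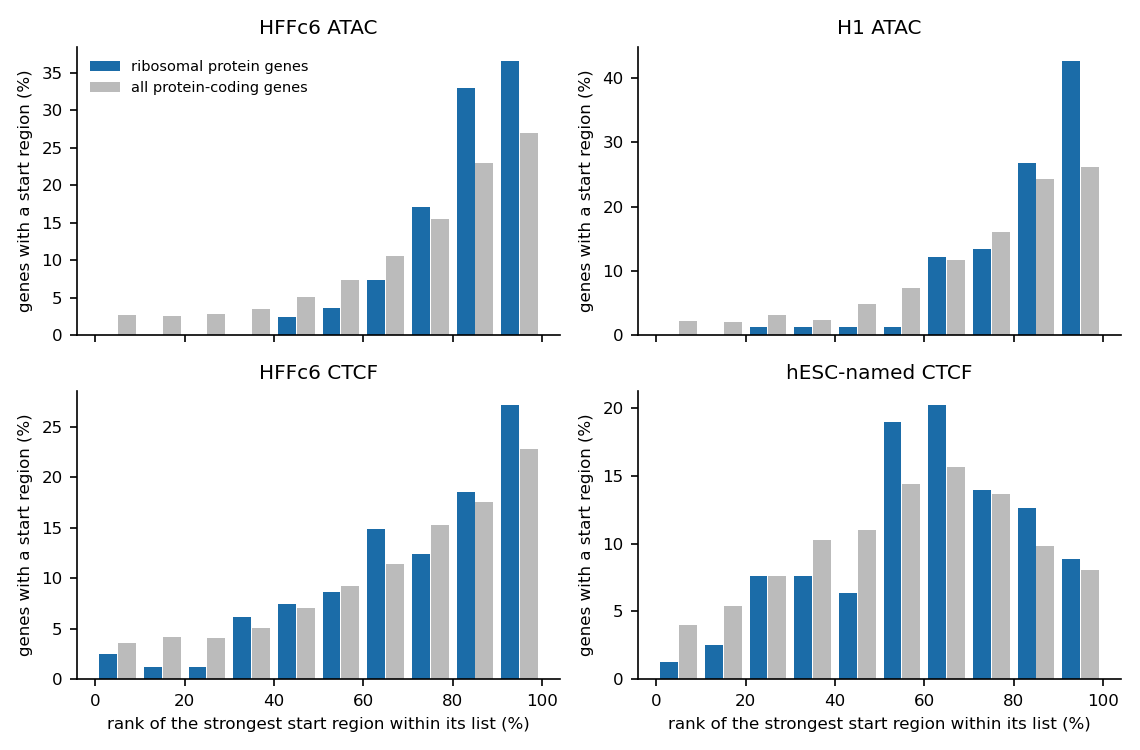
Rank of the strongest region at the start within each of the 4 lists (x axis, percent of the list's regions with a lower fold enrichment, in bins of 10%) for ribosomal protein genes (blue) and all protein-coding genes (grey). Bars give the share of genes with a start region (y axis, percent); in the top ATAC bin lie 36.6% (HFFc6) and 42.7% (H1) of the ribosomal protein genes, against 26.97% and 26.2% of all genes.

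Among the large subunit genes, RPL22, whose product also binds viral and cellular RNAs, had the strongest open start in both lines. Its fold enrichment was 18.5 in HFFc6 (rank 98.4%) and 21.4 in H1 (98.7%). RPL11, a protein of the 5S particle that binds MDM2, followed in HFFc6 with 17.5 and RPL21 with 17.3. In H1 the next were RPL30 with 21.2, RPL34 with 20.5 and RPL37 with 19.7. By the strongest region at the start, RPL19 was the weakest in both lines, with 5.39 in HFFc6 (rank 44.6%) and 3.93 in H1 (20.7%), and its CTCF regions had 8.31 and 7.88. RPL36 was also weak in both, with 6.38 and 5.02. RPL14 and RPL23A were low in HFFc6, at 6.51 and 6.90, and reached 7.25 and 7.97 in H1. RPL8, whose protein lies near the peptidyl transferase centre, had 9.33 in HFFc6 and 6.87 in H1.

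RPL41, which encodes the shortest ribosomal protein, showed how a neighbour enters these values. Its strongest HFFc6 ATAC region (9.30) had its summit 1460 bp downstream of the start, past the end of the gene and towards ZC3H10. The region over the start itself had 4.62 in HFFc6 (rank 37.2%), below the value at RPL19, and 4.64 in H1 (34.8%). Its CTCF regions at the start were among the weakest of the lists, with 2.35 in HFFc6 (rank 1.90%) and 3.05 in the hESC-named set (6.13%). In all, 38 members had another protein-coding gene within the window at an end. No share over all protein-coding genes is given beside it, so it is not read as a trait of the members.

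Among the small subunit genes, RPS9 and RPS20 had the highest ATAC fold enrichment in HFFc6, 17.0 and 16.6. RPS6, the substrate of S6 kinase, was the highest in H1 with 19.7 and had 14.2 in HFFc6. RPS27 was low in HFFc6 with 5.71 (rank 47.3%) and stood at 9.23 in H1 (74.0%). Its CTCF region had the lowest rank of all members in HFFc6, 0.424%, with a fold enrichment of 1.99, and 3.85 in the hESC-named list. RPS23, whose hydroxylated proline lies near the decoding centre, went the other way between the ATAC lists, with 14.9 in HFFc6 (91.1%) and 6.47 in H1 (56.8%). Whether RPS27 and RPS23 differ between the lines cannot be told from 1 list each.

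The P-stalk proteins, which recruit translation factors to the large subunit, differed among themselves. RPLP0 had ATAC fold enrichments of 13.6 in HFFc6 and 18.1 in H1, and CTCF values of 15.1 in HFFc6 and 13.4 in the hESC-named set. RPLP1 had 12.3 and 11.1 for ATAC and 9.04 and 6.83 for CTCF. RPLP2 had 12.1 and 8.19 for ATAC and 9.15 and 11.1 for CTCF. In rank RPLP0 was the highest of the 3 in each list.

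RPS4 is the small subunit protein encoded on both sex chromosomes. RPS4X had open starts in both lines, with 12.5 in HFFc6 and 13.9 in H1, and CTCF regions of 12.5 and 10.9. RPS4Y1 had an ATAC region at the start of 14.2 in HFFc6 (rank 88.9%) and of 7.82 in H1 (66.2%) and no CTCF region there. Its body held 2 HFFc6-only ATAC regions, at chrY:2857704-2858228 (6.78) and chrY:2859921-2861425 (10.3), and an HFFc6-only CTCF region overlapped each (5.91 and 5.07). RPS4Y2, which is described as testis-specific, had no region in any list at the start. The printed RPS4Y1 stretch has a tract of 7 bases at the start, and those of RPS4Y2 and RPS4X have none.

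The highest CTCF fold enrichments lay at different members in the 2 CTCF lists, though the leaders named here ranked high in both. In HFFc6 they included RPS14 with 18.5, RPL36A with 17.0 (shared with RPL36A-HNRNPH2), RPS19 with 16.8 and RPL32 with 16.3. RPS14 and RPS19 encode small subunit proteins linked to the 5q- syndrome and to Diamond-Blackfan anaemia. In the hESC-named list the highest were RPL26 with 34.2, RPS15 with 30.0, RPL27 with 25.9, RPS3A with 23.4 and RPL5 with 23.1. RPL26 ranked at 99.9% there and at 98.1% in HFFc6 CTCF, while its ATAC ranks were 65.1% in HFFc6 and 87.4% in H1. The HFFc6 CTCF ranks of RPS15, RPL27, RPS3A and RPL5 were 86.5%, 96.4%, 97.3% and 98.8%. Ranks in the hESC-named list were 89.8% for RPS14, 89.3% for RPL36A, 91.7% for RPS19 and 92.6% for RPL32. RPL21 ranked at 98.6% in HFFc6 CTCF and at 50.1% in the hESC-named list.

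**Figure D3:**
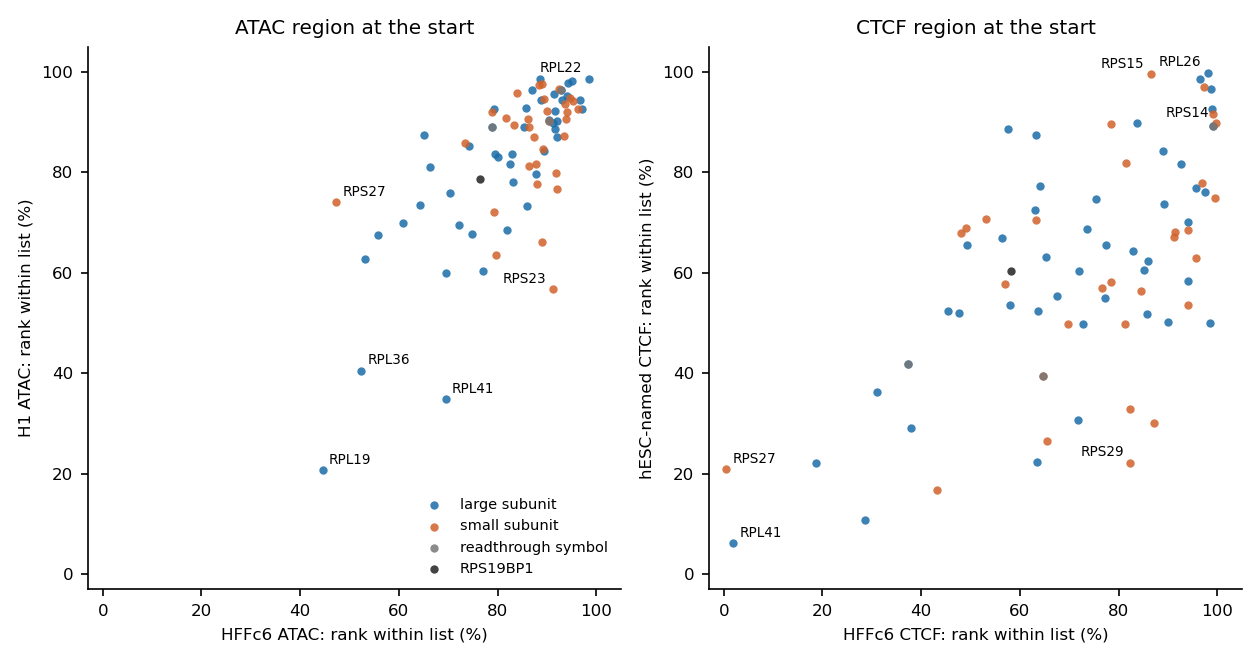
Rank of the strongest region at the start within its list (percent of the list's regions with a lower fold enrichment), with H1 (y axis) against HFFc6 (x axis) for ATAC on the left and the hESC-named list against HFFc6 for CTCF on the right. Each point is a member with a region in both lists, coloured by subunit; RPL19 is lowest in both ATAC lists (44.6% and 20.7%), and RPS27 and RPL41 lie low in both CTCF lists.

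Ranks of the members followed each other between the ATAC lists, with a Spearman rho of 0.664 across 82 members, and 0.663 across all 14001 genes with regions in both. Between the CTCF lists rho was 0.572 across 79 members and 0.421 across all 12099 genes. Between ATAC and CTCF it was 0.540 across 81 members in HFFc6 and 0.339 across 79 for H1 ATAC and the hESC-named list, against 0.599 and 0.348 over all genes. Genes are not independent replicates, and the lists share the enzyme Tn5 where the assay is known. Widths also varied. The median start region was 1396.5 bp wide in HFFc6 ATAC, against 1353 bp over all genes, and 638.5 bp in H1 ATAC, against 686 bp. The widest in HFFc6 were at RPS12 (2692 bp), RPL7 (2475 bp), RPS29 (2363 bp), RPL12 (2297 bp) and RPL7A (2152 bp). In H1 they were at RPL9 (1235 bp), RPL7 (1143 bp), RPS26 (1076 bp), RPL32 (1039 bp) and RPL28 (1022 bp). Some of these genes have a start on the opposite strand upstream, at 281 bp for RPS12, 230 bp for RPS29, 80 bp for RPL12 and 134 bp for RPL9. RPL7A, RPS26, RPL32 and RPL28 have no such start within 1 kb, and RPL7 has no listed start. Among all members with a listed start 33.3% have one, against 22.1% of all genes. A wide region at such a pair can cover both starts, and whether this bears on the widths was not tested. The widest starts were not the strongest: RPL7A had 7.67 and RPL12 8.32 in HFFc6.

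Summits lay just upstream of the start, in a larger share of members than of all genes in each list. In HFFc6 ATAC the summit of the strongest region was upstream in 55 of 65 members with a listed start (84.6%), against 71.3% of 12033 genes, with median positions of -71 bp and -57 bp. In H1 ATAC it was upstream in 61 of 65 (93.8%), against 73.3%, with medians of -95 bp and -70 bp. Other lists came close in H1 ATAC, with an upstream summit at 62 of 70 mitochondrial ribosomal protein genes (88.6%), 22 of 25 ribosome assembly genes (88%) and 11 of 11 other translation genes. In HFFc6 ATAC these counts were 49 of 70, 19 of 25 and 9 of 11. HFFc6 CTCF summits were upstream in 56 of 64 (87.5%), against 58.5% of all genes, with medians of -119.5 bp and -49 bp. All 62 hESC-named CTCF summits were upstream, against 72.7% of 11121 genes, with medians of -171 bp and -114 bp. In the same list 51 of 67 mitochondrial ribosomal protein genes, 20 of 23 ribosome assembly genes and 10 of 10 other translation genes had an upstream summit. In HFFc6 CTCF these counts were 43 of 70, 17 of 25 and 9 of 11. The farthest hESC-named summit lay at RPL36, at -966 bp, and the farthest in HFFc6 CTCF at RPL7A, at -1059 bp. The summits of the ATAC lists lay a median of 39 bp apart at the members and within 100 bp in 71 of 82, against 64 bp and 62.4% over all genes. The summits of the CTCF lists lay a median of 104 bp apart, against 135 bp.

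**Figure D4:**
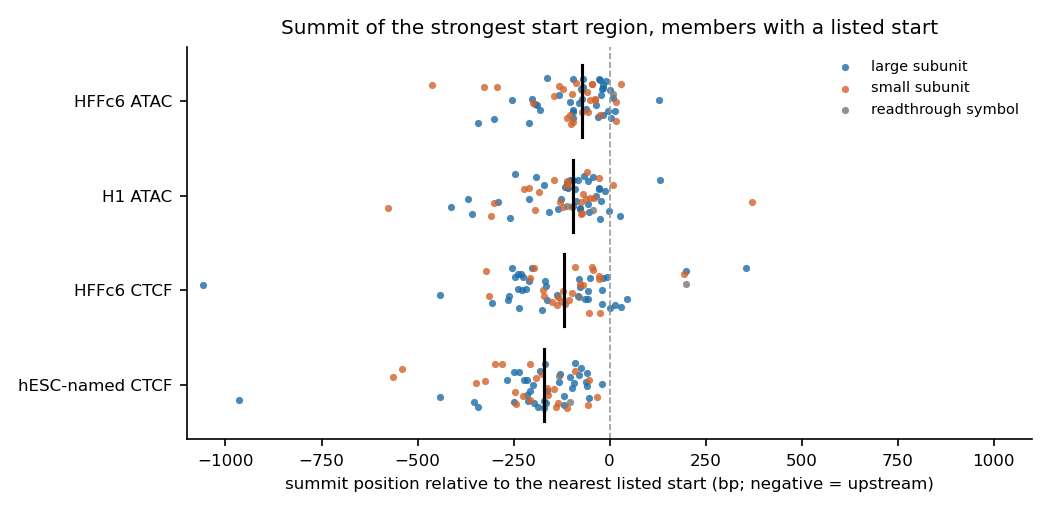
Position of the summit of the strongest region at the start relative to the nearest listed start (x axis, bp, negative upstream) for members with a listed start in each of the 4 lists (y axis), coloured by subunit, with vertical spread added for legibility. Black bars are medians (-71, -95, -119.5 and -171 bp from top to bottom) and the dashed line is the start; RPL41 in HFFc6 ATAC, at 1460 bp, lies outside the axis.

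Neighbouring starts were common. Of the 66 members with a listed start, 22 had a start on the opposite strand within 1 kb upstream (33.3%), against 22.1% of all protein-coding genes with a listed start. The closest were NKIRAS1, 43 bp from RPL15, and LRSAM1, 80 bp from RPL12. BTK, the Bruton kinase gene of B cells, starts 215 bp from RPL36A. Head-to-head members had median ATAC ranks of 88.3% and 90.6% in HFFc6 and H1, and the others 85.8% and 87.1%. Their median CTCF rank was 83.7% in HFFc6, against 73.2% for the others. In the hESC-named list the order was reversed, with 60.5% against 65.6%. RPL36A and RPL36A-HNRNPH2 share a start and are both counted. A region between such a pair belongs to both genes. In addition 30 members (36.1%) held 60 of the 1199 snoRNA genes in the table, against 2.63% of all protein-coding genes with at least 1. RPL3, RPL4, RPL7A, RPL13A and RPL23A were among those that held 4 each.

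The start sequences had a feature that the rule did not use. A pyrimidine tract, here a C at the start base followed by at least 4 more pyrimidines, was found at a listed start of 48 of 66 members (72.7%) and of 988 of all 15842 protein-coding genes with a sequence (6.24%). Counted over each listed start rather than each gene, it was found at 58.8% of member starts and 4.53% of all starts. With the tract allowed within 5 bases of the start base, these shares were 72.5% and 21.9%. From the start base, the median tract was 8 bases and the longest 19. In the printed stretches it is 12 bases long at RPL26, 11 at RPS19, 10 at RPS14 and 7 at RPS3A and RPS4Y1. Of 11 other translation genes with a listed start, 10 had a tract, but that list was chosen for mRNAs that carry it. In the lists not chosen for it, 6 of 70 mitochondrial ribosomal protein genes and 5 of 25 ribosome assembly genes had a tract. Members with the tract had median ATAC ranks of 87.8% in HFFc6 and 88.0% in H1, and the 17 without it 83.2% and 89.0%.

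Short letter motifs were then counted on both strands in the windows from 250 bases before to 50 after each listed start, 80 windows of members and 22077 of all protein-coding genes. The motifs were chosen after the sequences were seen, some share letters, and a match is no proof of binding. The core of the ETS family, CCGGAAG, was in 32.5% of member windows (interval 23.2 to 43.4), against 12.8% of all windows, and occurs in RPL26, RPS3A, RPL32 and RPS14 as printed. TCTCGCGA, the first 8 bases of the palindrome TCTCGCGAGA and here called its core, was in 13 windows (16.2%, interval 9.75 to 25.8), against 1.57% of all. It occurs in RPL26 and at 2 places in RPS19 as printed. ATGGCGG, the core of the YY1 site, was in 15 windows (18.8%, interval 11.7 to 28.7), against 6.998%. GGGCGG, the GC box, was in 52.5% against 56.3%, CCAAT in 33.8% against 34.7%, TATAAA in 7.5% against 9.50% and CACGTG, an E-box, in 5% against 8.32%. The letters AGGGGGC, part of the CTCF site, were in 10% against 17.5%, and the form AGGTGGC in 5% against 7.19%. The 11 members with either form had a median CTCF rank of 86.5% in HFFc6 and 77.3% in the hESC-named set, and those without it 73.6% and 57.0%. Over all genes the medians were 74.2% and 59.9% with either form, and 75.1% and 57.9% without.

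**Figure D5:**
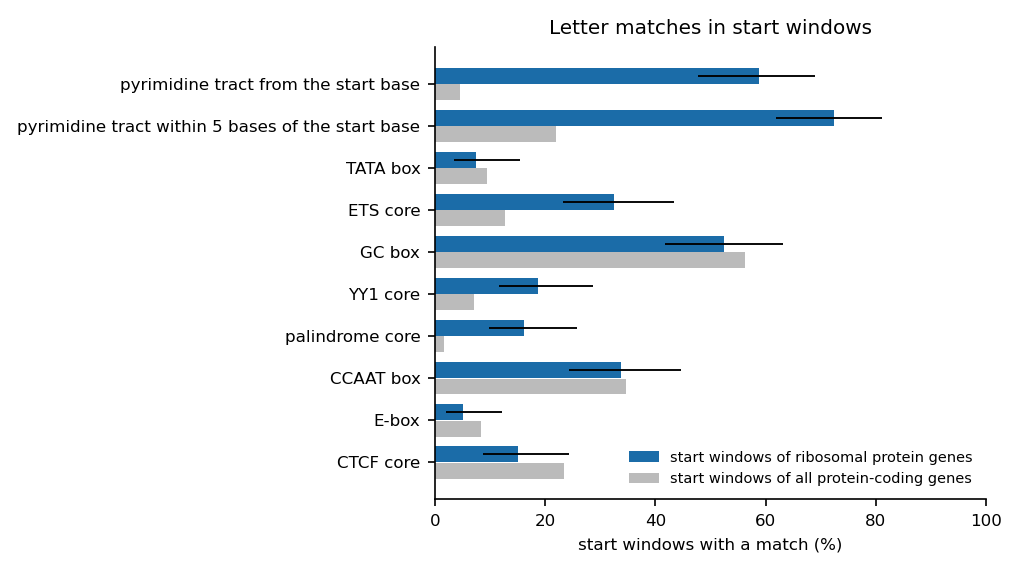
Share of start windows with a letter match (x axis, percent) for ribosomal protein genes (blue, with 95% Wilson intervals) and all protein-coding genes (grey), by motif (y axis). The pyrimidine tract from the start base is in 58.8% of member windows against 4.53% of all, and within 5 bases of it in 72.5% against 21.9%. The palindrome, ETS and YY1 cores are also more frequent in member windows.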

How the data were processed

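Values came from 4 deposited peak lists of human cell lines. The submitters' processing notes list bedtools, BWA and MACS2 and the build hg38. The sources used here do not give versions, filters or the handling of reads that map to several copies, which matters for exons with processed copies. The deposited fold enrichment is the authors' peak caller ratio of signal over background. The deposited −log10 q-value served as a filter, and no list reached past a q of 0.05. The authors' score was not used, and the authors' summit offset gave summits.

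Genes and start sequences came from RefSeq (GRCh38.p14). A region within 1 kb of a gene end or start by 1 bp was at it, and other regions inside a gene were in the body. A region was shared at 1 bp of overlap with the other list of its kind. Counts and medians were set beside all protein-coding genes, without a test. Overlap and counting steps were tested on simulated data. Python 3.11.15, numpy 2.4.6, pandas 2.3.3, scipy 1.17.1 and matplotlib 3.10.9 were used.

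Members and lists were chosen with earlier results of these data known. Named genes were the exceptions at the start, the 5 highest and 5 lowest by ATAC fold enrichment, the 5 highest by CTCF fold enrichment, the 5 widest starts, members with most list-only body regions, and the Y-linked, readthrough and P-stalk members. Alternatives were other windows, stricter or equal numbers of peaks, 500 bp regions, 50% overlap, ranks by q and subsets of members.

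Either gene end replaced the start at 17 members, among them RPL5, RPL7, RPL8, RPL23, RPL23A, RPL30, RPL37, RPS2, RPS10-NUDT3, RPS15A, RPS19BP1 and RPS20. Some genes are counted but not reported by name here. No Cut&Tag control without a specific antibody was used here.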

Additional observations from a re-analysis of the deposited data

Results flagged for a closer look

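No comparison used the peaks that fell outside chromosomes 1 to 22, X and Y. The HFFc6 ATAC list held 279 of them, the H1 ATAC list 131, the HFFc6 CTCF list 130 and the hESC-named CTCF list 103. The members of the gene table used here lie on none of these sequences, and nothing was tested on them.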

How the results depend on the processing

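Of 188 values over 20 results and 11 alternatives, 157 stayed within the main value's interval (1.5 times for counts) and 31 moved. ATAC presence at the start or end was among the former under each alternative. The cause of the moves was not tested, except that subsets and stricter peaks leave fewer regions and that ranks are retaken within a shortened list. Leaving out joined symbols with RPS19BP1, and keeping members with a listed start, were chosen after seeing the data.

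Under stricter peaks (−log10 q from 10 upward), CTCF in both lists fell to 81.9% of members at either end and 81.9% at the start. No share over all genes is given under that setting, so the fall is not read as particular to the members. Shares of regions over all places at the members are 81.5% (H1 ATAC found in HFFc6), 80.0% (HFFc6 ATAC), 83.1% (CTCF of HFFc6) and 86.4% (hESC-named CTCF) in the main setting. Over all regions of each list, wherever they lie, the shares are 31.8%, 34.7%, 50.9% and 41.3% in the same order. The places differ, so these are not like for like. In HFFc6 ATAC 84 of 130 member regions lay at a start, against 15755 of 156001 in the list. In H1 ATAC it was 93 of 135, against 20529 of 190126. At the starts of all genes the shares are 80.3%, 86.2%, 79.6% and 78.2% in the same order. The share of member H1 ATAC regions found in HFFc6 was 89.4% with those peaks and 72.7% with 500 bp around the summit. That of HFFc6 ATAC regions in H1 was 37.7% at 50% overlap. For CTCF of HFFc6 it was 52.4% at 50% overlap and 89.7% without members with a neighbour. For hESC-named CTCF it was 95.9% with stricter peaks and 92.0% at equal numbers.

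Median start ranks by −log10 q were 92.4% (HFFc6 ATAC), 93.3% (H1 ATAC) and 85.3% (HFFc6 CTCF). With stricter peaks they were 77.4% (H1 ATAC) and 45.3% (hESC-named CTCF), and 52.7% for the latter at equal numbers. A rank is taken within the regions kept, so leaving out weaker regions lowers it while the fold enrichment of a kept region stays the same. Stricter peaks keep 48.4% of the H1 ATAC list and 60.5% of the hESC-named list. No median over all genes is given under these settings, so the lower ranks are not read as weaker member starts.

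Body regions, here with those that also lie at an end of another member, numbered 30 and 21 in the ATAC lists of HFFc6 and H1 and 26 and 21 in CTCF of HFFc6 and the hESC-named list in the main setting. They numbered 19 and 12 in the ATAC lists of HFFc6 and H1, and 16 and 13 in the HFFc6 and hESC-named CTCF lists, without joined symbols, with or without RPS19BP1, and in the same order 11, 6, 5 and 4 without members with a neighbour. With stricter peaks they numbered 10 in H1 ATAC, 16 in CTCF of HFFc6 and 12 in hESC-named CTCF, and with listed starts 17 in CTCF of HFFc6.

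No paired analysis was possible because each list pools its libraries. Lists differ in length, width and number of libraries, so ranks and shares are read within a list.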
